A study of Mus musculus with 192 samples.

Results

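The hearts of mice given the highest and the lowest of 3 fentanyl doses were compared by their microRNA (miRNA) profiles. The members were chosen by label, except that LOEL mouse FP38 was left out for its measured profile. They were the fentanyl hearts at LD50 (135 mg/kg, 16 mice) and at LOEL (62 mg/kg, 15 mice without FP38), which gave 31 of the 64 heart libraries and of the 192 samples of the series. LD10 (110 mg/kg, 16 mice) was fitted with them to place the middle dose. All mice were adult male SKH-1 Elite mice, a hairless outbred strain. Fentanyl citrate was injected under the skin, and sham mice received Ringer's solution alone. Hearts were taken at 0h (which is 40 min after the injection), 6h, 24h and 7d, from 4 mice per dose and time, or 3 for LOEL at 6h. The labels call 62 mg/kg LOEL and the study's text calls it the highest non-lethal dose. LD10 and LD50 name doses lethal to a set share of animals, taken by the study from earlier work in this strain. The LD50 mice sampled at 6h and later had survived the dose, so dose and survival cannot be told apart at those times.

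A miRNA is a short RNA that guides a silencing complex to messenger RNAs, mostly through pairing of its seed, the bases 2 to 8 from its 5′ end. miRNAs with one seed are grouped into a family because they can bind many of the same transcripts. Heart muscle is known for miR-1, miR-133a and the miR-208 and miR-499 group, the last of which are made from introns of the myosin heavy chain genes, while other miRNAs mark the vessel, blood and connective tissue cells of the organ. Fentanyl is an agonist of the mu opioid receptor that depresses breathing, and hypoxia-inducible factor is known to raise miR-210 where oxygen is low.

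No miRNA passed the test between LD50 and LOEL hearts. Of 312 miRNAs tested, 0 passed an adjusted p of 0.05 (0% of those tested, limma with Benjamini-Hochberg adjustment, smallest adjusted p = 0.938). At an unadjusted p under 0.05 there were 10, which is 3.21% of those tested, 5 of them higher and 5 lower at LD50. edgeR's quasi-likelihood test and DESeq2 on recovered reads called 0 each, with 10 and 11 at an unadjusted p under 0.05. The estimates lay evenly around 0, with 155 above it, 157 below it and a median of -0.0019 on the log2 scale. No miRNA had all LD50 mice above or all below the LOEL mice (0%).

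Most miRNAs were measured closely enough to bound the difference. The 95% interval of the difference, pooled over the 4 times, reached a median of 0.27 on the log2 scale to each side. It lay within 1 log2 unit of 0, that is within a 2-fold change either way, for 298 of the 312 miRNAs, and within 0.5 for 228. Differences inside these intervals are not excluded, and the smallest difference that this number of mice could detect was not computed.

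**Figure D1:**
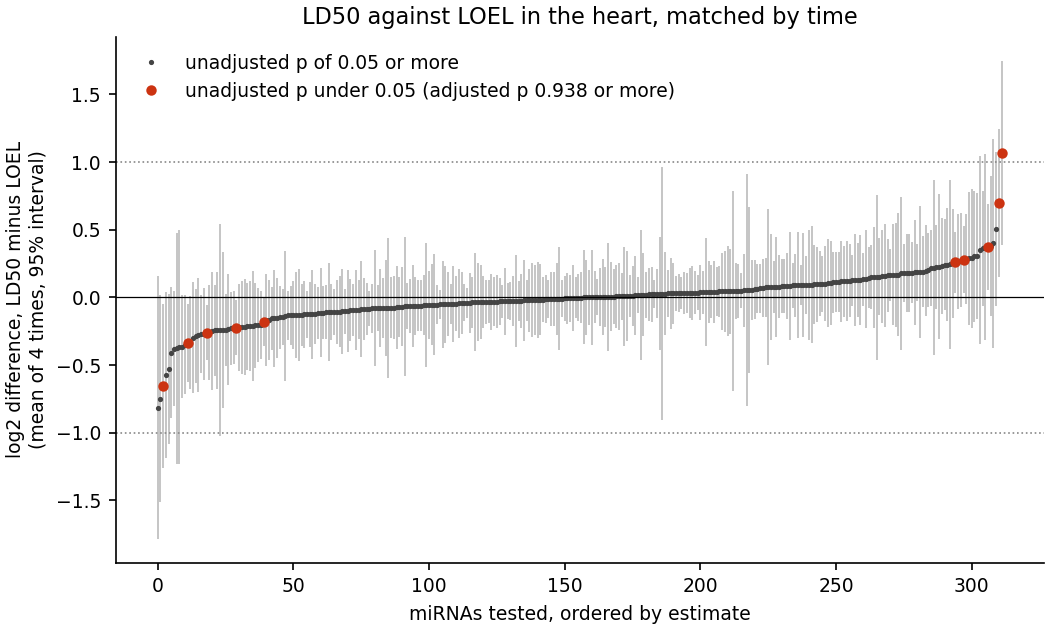
Differences of LD50 minus LOEL on the log2 scale (vertical axis, mean of the 4 times) for the 312 miRNAs tested, ordered by estimate (horizontal axis). Grey lines are 95% intervals, dotted lines mark 1 log2 unit, and red points are the 10 miRNAs at an unadjusted p under 0.05, of which miR-215-5p lies farthest from 0 at 1.07.

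Some properties of the libraries bear on these values. Library totals, recovered as whole reads, were 334650 to 3933545 at LOEL (median 2009247) and 215163 to 3868052 at LD50 (median 1421655), a difference of medians of -0.50 on the log2 scale (p = 0.21, 2-sided permutation test with 100000 resamples, n = 16 and 15). At 0h every LD50 library was shallower than every LOEL library (1097802 to 1454216 against 1661890 to 3740076 reads, exact 2-sided permutation p = 0.0286 for 4 against 4, the smallest this design allows). The part of depth in the differences at 0h was not tested. Under 0.25 of the median depth of all heart libraries were 3 of the compared ones, namely LD50 mice FP68 (6h) and FP61 (7d) and LOEL mouse FP24 (7d), and in the shallowest of them 1 read stands for a value of 3.96. The heart library of LOEL mouse FP38 at 6h went against its label: its profile had a Pearson r of 0.993 with the lung median and 0.839 with the heart median across 307 miRNAs, which are not independent, while the lung library of that mouse had 0.879 and 0.962, and it was left out. Sham hearts were not in the main fit. The heart column of sham mouse FP91 (24h) carries an LD10 name although its label says Control, and it was kept as sham. Sham mouse FP92 (24h) had a low depth of 245799 reads. Mouse numbers coincide largely with dose. Of the LD50 mice 14 of 16 are numbered FP59 or above and of the LOEL and LD10 mice 0 are, so that number range and dose can be told apart only through LD50 mice FP29 and FP43. All 16 sham mice are numbered FP59 or above too. Where sham and LD50 hearts had like values, treatment and number range therefore cannot be told apart. With a term for the number range limma gave 0 calls and 8 miRNAs at an unadjusted p under 0.05. That fit rests on FP29 and FP43, so its 0 calls cannot separate dose from number range. A fit with FP29 and FP43 as the only LD50 mice of 6h and 7d compared those times alone, and only its estimates are given below.

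The hearts carried the markers of their tissue. The muscle miRNAs miR-133a-3p, miR-1a-3p, miR-208a-3p and miR-499-5p were read in every library, while miR-206-3p, a marker of skeletal muscle, was at 0 in 43 of the 47 fentanyl libraries and reached a value of 4.2 at most. The liver marker miR-122-5p was at 0 in 26 and reached 1.8. Other miRNAs of the liver list, miR-192-5p and miR-194-5p, were read in all 47, at medians of 2102 and 188. So were miR-128-3p of the neuronal and miR-203-3p of the epithelial list, so being read in every library is not particular to muscle markers. By mean value miR-133a-3p ranked 4, miR-1a-3p 40, miR-499-5p 60 and miR-208a-3p 63. Values are reads scaled by the trimmed mean of M-values (TMM), so a heart with fewer cells of a type and one with less of the miRNA per cell cannot be told apart.

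The miRNAs with the smallest p are shown here by sequence with family members and neighbours, since their values are set beside each other. Capitals mark the seed, and the sequences are those of RefSeq (GRCm38.p6), which held 53 of the 63 miRNAs named by the rule given under processing.
miR-215-5p: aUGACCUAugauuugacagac
miR-192-5p: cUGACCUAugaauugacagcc
miR-194-5p: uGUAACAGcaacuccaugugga
miR-455-3p: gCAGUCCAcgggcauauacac
miR-30f: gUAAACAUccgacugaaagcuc
miR-30a-5p: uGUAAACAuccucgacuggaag
miR-149-5p: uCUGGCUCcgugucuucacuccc
miR-872-3p: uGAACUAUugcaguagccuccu
miR-3068-3p: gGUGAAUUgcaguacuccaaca
miR-153-3p: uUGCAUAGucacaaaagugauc
miR-99a-3p: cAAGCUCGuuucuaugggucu
miR-34b-5p: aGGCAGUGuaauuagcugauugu
miR-34a-5p: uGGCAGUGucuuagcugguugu
miR-340-5p: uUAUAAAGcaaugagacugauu
miR-215-5p and miR-192-5p have the seed UGACCUA in common, and miR-34b-5p and miR-34a-5p the seed GGCAGUG. miR-30f and miR-30a-5p both hold the run GUAAACAU, which begins 1 base nearer to the 5′ end in miR-30f, so their seeds UAAACAU and GUAAACA are counted as different.

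miR-215-5p had the smallest p of the comparison. With miR-192 it belongs to a family known from liver, gut and kidney epithelium and as a target of p53. At LOEL its value was 439, 483, 678 and 701 at 0h, 105, 639 and 1076 at 6h, 72.7, 91.8, 638 and 1087 at 24h, and 193, 655, 1125 and 1411 at 7d. At LD50 it was 434, 785, 1474 and 1884 at 0h, 887, 999, 1224 and 1507 at 6h, 533, 566, 1048 and 1512 at 24h, and 521, 765, 1027 and 1329 at 7d. The groups overlapped, and 4 LOEL hearts, 1 at 6h, 2 at 24h and 1 at 7d, lay below every LD50 heart. The estimate was 1.07 (SE 0.34) higher at LD50 on the log2(value + 1) scale, a fold of 2.10 (95% interval 1.31 to 3.36), with an adjusted p = 0.938 by limma (an unadjusted p of 0.00301). It was positive at all 4 times, from 0.36 at 7d to 1.66 at 24h. The sham hearts spread as widely, from 86.8 to 2113 with a median of 615 (n = 16), and LD10 hearts ran from 85.7 to 1027 with a median of 568.

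The neighbour and the seed partner of miR-215-5p had estimates nearer to 0. Mir215 lies at chr1:187137460-187137571 of mm9, in an intron of Iars2 and on the strand opposite to that gene. Mir194-1 lies beside it at chr1:187137198-187137264, and the related pair Mir192 and Mir194-2 at chr19:6264844-6264932 and chr19:6264643-6264728, between genes. miR-194-5p, which both loci make, was at 0.18 (SE 0.11, adjusted p = 0.961 by limma) and miR-192-5p at 0.04 (SE 0.10, adjusted p = 0.98). The difference between miR-215-5p and these miRNAs was not itself tested.

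**Figure D2:**
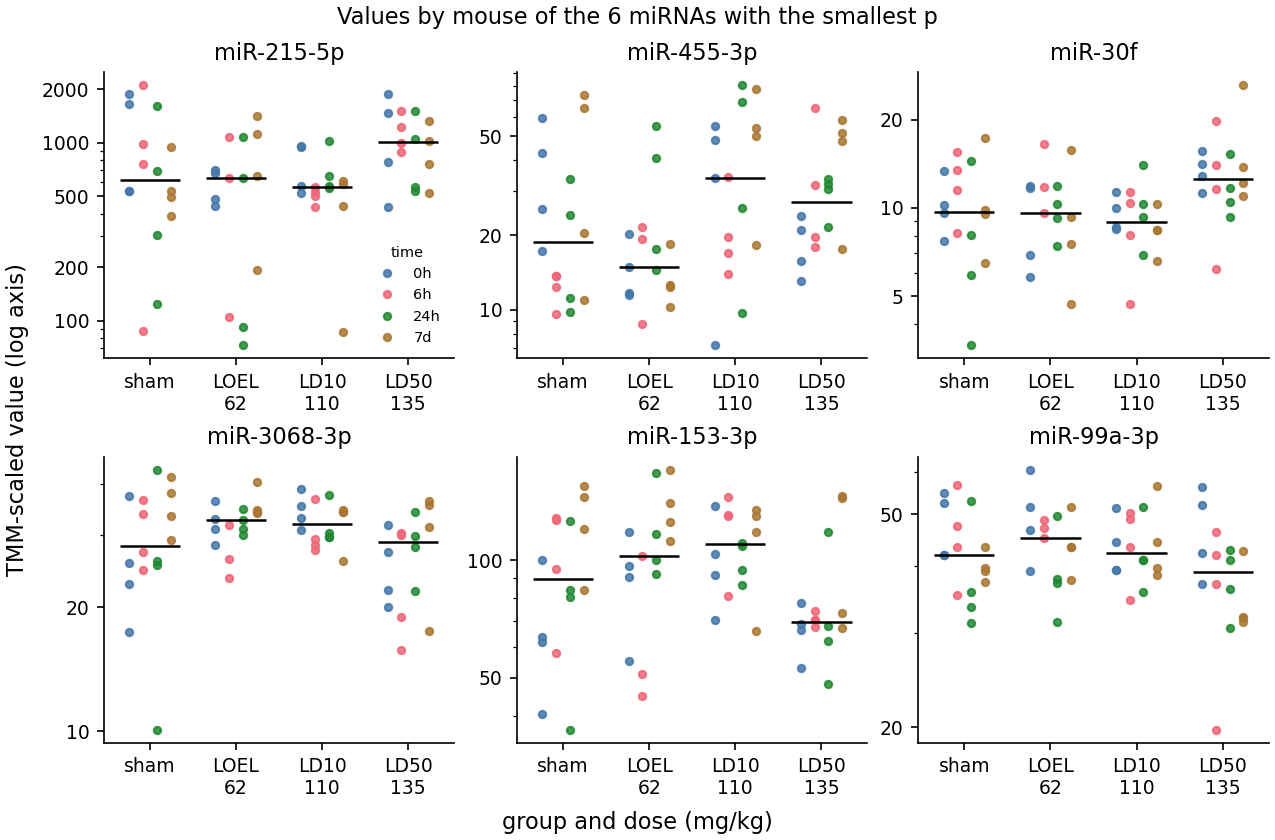
TMM-scaled values on log axes for the 3 miRNAs with the smallest p in each direction, by group and dose (sham, LOEL 62, LD10 110, LD50 135 mg/kg). Points are single mice coloured by time and black lines are medians over the 16 mice of a group (15 for LOEL), and in each panel the LOEL and LD50 points overlap.

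miR-455-3p, known from cartilage and encoded in an intron of the collagen gene Col27a1 (chr4:62917885-62917966 of mm9), came next. Its value at LOEL had a lowest of 8.8, a median of 14.9 and a highest of 55.1. At LD50 these were 13.1, 27.3 and 65.2, and at LD10 7.2, 34.1 and 80.2. The estimate was farthest from 0 at 7d, where the LD50 mice read 17.5, 48, 51.4 and 58.2 against 10.3, 12.4, 12.6 and 18.4 at LOEL, with an overlap of 1 mouse. Pooled over the times the estimate was 0.70 (SE 0.27, a fold of 1.62, interval 1.11 to 2.37), with an adjusted p = 0.961 by limma. The estimate of LD10 over LOEL was 0.83, so that of the middle dose was no smaller than that of LD50.

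The other 3 miRNAs above LOEL at an unadjusted p under 0.05 had small differences. miR-30f was read at 4.7 to 16.5 at LOEL (median 9.6) and 6.2 to 26.2 at LD50 (median 12.5), an estimate of 0.38 (SE 0.16). miR-149-5p, encoded in an intron of the glypican gene Gpc1, had values of 1140 to 2212 (median 1603) and 1091 to 2843 (median 2030) and an estimate of 0.26 (SE 0.11). At 24h its LD50 mice, at 2233, 2525, 2673 and 2843, were all above the LOEL mice at 1590, 1680, 1844 and 1958, and at 7d the estimate was on the other side of 0, at -0.16. miR-872-3p, from an intron of the cilium gene Ift74, had values of 38.8 to 128 (median 92.7) and 76.6 to 184 (median 116) and an estimate of 0.28 (SE 0.12). All had an adjusted p of 0.961 by limma.

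The 5 further miRNAs that the rule named above LOEL did not reach an unadjusted p of 0.05 (adjusted p = 0.961 by limma for each). They were miR-5100 at 0.51 (SE 0.28), miR-191-5p at 0.19 (SE 0.10), miR-126a-5p at 0.17 (SE 0.10), miR-542-5p at 0.36 (SE 0.21) and miR-1843a-3p at 0.28 (SE 0.17). miR-542-5p turned to -0.04 with the term for the mouse number range and to -0.14 with LD50 mice FP29 and FP43 alone, as did miR-191-5p to -0.20 with these mice. miR-126a-5p comes from the endothelial gene Egfl7 and miR-191-5p is read in most tissues. Their values overlapped between the doses, for example 20935 to 38980 at LOEL and 20977 to 40644 at LD50 for miR-126a-5p.

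Below LOEL, the smallest p belonged to miR-3068-3p, whose role is not well described. Its values were 23.6 to 40.4 at LOEL (median 32.7) and 15.9 to 36.3 at LD50 (median 28.9), and the estimate was -0.26 (SE 0.10). It was negative at all 4 times, between -0.18 and -0.35, and turned to 0.02 with the term for the mouse number range. miR-153-3p, a neuronal miRNA encoded in an intron of Ptprn2 (chr12:118489290-118489358 of mm9), had values of 44.8 to 170 (median 103) and 48.2 to 146 (median 69.3) and an estimate of -0.34 (SE 0.14). Its estimate was 0.19 at 6h, where 2 of the 3 LOEL mice, at 44.8 and 51, lay under all LD50 mice, and -0.72 at 24h, and with LD50 mice FP29 and FP43 alone it was 0.14. miR-99a-3p, of the miR-99 and let-7c cluster on chromosome 16, had values of 31.4 to 60.6 (median 45.2) and 19.8 to 56.2 (median 39.1) and an estimate of -0.22 (SE 0.10). All 3 had an adjusted p of 0.961 by limma.

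miR-34b-5p, which is read from one transcript with miR-34c and is known as a target of p53 and from ciliated cells, had a larger but noisy difference. Its values were 0 to 42.6 at LOEL (median 8.1) and 0 to 11.6 at LD50 (median 5.0), where each 0 came from a low-depth library. The estimate was -0.66 (SE 0.30, adjusted p = 0.961 by limma). At 0h the LD50 mice, at 4.3, 4.6, 4.7 and 5.3, were all below the LOEL mice at 5.7, 8.6, 15.5 and 42.6, at 6h they again did not overlap, and at 7d the estimate was 0.66. miR-34c-5p was at -0.38 (SE 0.21) with LOEL mice of 0h as far apart as 107 and 569. miR-34a-5p, the member of the family that most tissues express, was at 0.01 (SE 0.11, interval -0.21 to 0.23).

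miR-340-5p, from an intron of Rnf130, completed those at an unadjusted p under 0.05, with values of 412 to 806 (median 519) at LOEL and 291 to 582 (median 441) at LD50 and an estimate of -0.18 (SE 0.09), which was 0.06 with LD50 mice FP29 and FP43 alone. The 5 further ones named by the rule were miR-375-3p at -0.75 (SE 0.38), miR-335-3p at -0.33 (SE 0.17), miR-29b-3p at -0.36 (SE 0.19), miR-148b-5p at -0.35 (SE 0.18) and miR-362-3p at -0.53 (SE 0.28), each with an adjusted p = 0.961 by limma. With the term for the mouse number range miR-29b-3p turned to 0.41, miR-148b-5p to 0.19 and miR-362-3p to 0.14, and with FP29 and FP43 alone miR-29b-3p was at 0.76 and miR-148b-5p at 0.22. miR-335-3p, from an intron of the imprinted gene Mest, was negative at all 4 times, between -0.25 and -0.47. miR-375-3p marks endocrine and epithelial cells and was close to its detection limit here, with a median of 2.0 at LOEL and 1.7 at LD50.

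The mean at the middle dose lay outside those of the other doses for most miRNAs. LD10 fell between LOEL and LD50 for 70 of the 312 miRNAs (22.4%) and for 10 of the 20 with the smallest p. Those 20 were chosen by their difference between LOEL and LD50, which by itself makes a place between more likely, so no dose order can be read from the 2 counts. A test for a trend with the dose in mg/kg called 0 (0%), with 7 at an unadjusted p under 0.05 (2.24%) and a smallest adjusted p of 0.996 by limma. Its 5 smallest p were those of miR-215-5p (a slope of 0.013 log2 units per mg/kg, SE 0.0047), miR-455-3p, miR-872-3p, miR-3068-3p and miR-149-5p, all described above.

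**Figure D3:**
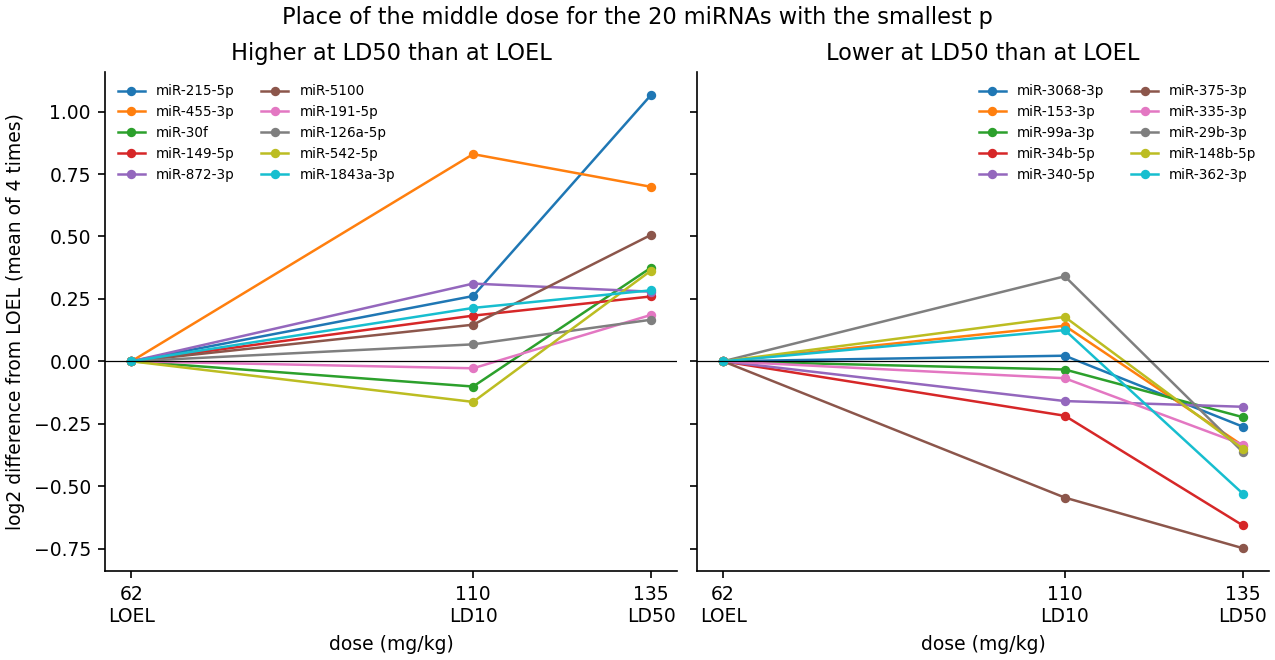
Estimates over LOEL on the log2 scale (vertical axis, mean of the 4 times) against dose in mg/kg (horizontal axis) for the 10 miRNAs with the smallest p above LOEL (left) and below it (right). LOEL is 0 by construction, and the lines bend at LD10, which lies between the other doses for 10 of the 20. These were chosen by the difference between LOEL and LD50, which by itself makes a place between more likely.

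More miRNAs reached an unadjusted p under 0.05 where LD10 was one of the doses compared. LD10 against LOEL gave 0 calls (0%) and 25 miRNAs at an unadjusted p under 0.05 (8.01%, smallest adjusted p = 0.391 by limma), and LD50 against LD10 gave 0 calls (0%) and 60 (19.2%, 22 higher and 38 lower at LD50, smallest adjusted p = 0.0611). These comparisons share the LOEL or the LD50 libraries with the main one. edgeR called 0 in LD50 against LD10, with 58 at an unadjusted p under 0.05, and DESeq2 called 1, with 62. That miRNA was miR-148a-5p, at 0.46 for LD50 against LD10 (SE 0.11, adjusted p = 0.0611 by limma) and 0.08 for LD50 against LOEL (SE 0.11). With 1 library left out LD50 against LD10 gave 0 to 7 calls, with 7 without LD50 mouse FP67 of 0h or FP64 of 24h, where only LOEL and LD50 libraries were left out and no LD10 library was. With library weights it gave 14 calls and with RLE scaling 4. The miR-29 members were on the other side, with miR-29b-3p at -0.70, miR-29a-3p at -0.62 and miR-29c-3p at -0.56 against LD10, and -0.36, -0.29 and -0.21 against LOEL. miR-148a-5p, the partner strand of miR-148a-3p, was chosen after its value was seen.

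By time, LD50 against LOEL gave 0 calls at each of the 4 times (0% each, smallest adjusted p = 0.566 at 0h, 0.586 at 6h, 0.522 at 24h and 0.995 at 7d by limma). At an unadjusted p under 0.05 there were 20 at 0h (6.41%), 19 at 6h (6.09%), 23 at 24h (7.37%) and 6 at 7d (1.92%). edgeR gave 24, 18, 20 and 4 at that level and DESeq2 28, 20, 20 and 7, and neither called any. Without LD50 mouse FP67 the 0h comparison called 1 miRNA, miR-671-3p. The mice of the doses did not overlap for 8 miRNAs at 0h (2.56%), 19 at 6h (6.09%, with 3 LOEL mice), 5 at 24h (1.6%) and 6 at 7d (1.92%). The median interval reached 0.52 to each side with 4 mice against 4 and 0.56 at 6h, against 0.27 for the pooled comparison.

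At 0h the smallest p above LOEL was that of miR-191-5p, at 3952, 4460, 4572 and 5616 at LOEL and 5236, 6103, 8570 and 8776 at LD50, an estimate of 0.60 (SE 0.20). Below LOEL it was that of miR-375-3p, at 1.1, 7.6, 14.3 and 20.7 at LOEL and 0, 0.7, 0.9 and 2.8 at LD50, an estimate of -2.22 (SE 0.74). Both pairs of groups overlapped, and the adjusted p of both was 0.566 by limma. The sham mice of 0h read miR-375-3p at 0.4 to 3.2, the level of the LD50 mice. Both of these groups are numbered FP59 or above, and the LOEL mice are not.

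At 6h miR-199b-5p, a miRNA of fibroblasts and other mesenchymal cells, was at 43.6, 59.6 and 64.1 at LOEL and 68.5, 81.3, 95.1 and 103 at LD50. These groups did not overlap, and the estimate was 0.63 (SE 0.24). miR-7068-3p, which has no role that is well known, was at 40.6, 46.6 and 49.9 at LOEL and 7.9, 27.6, 30.4 and 39.6 at LD50, an estimate of -0.96 (SE 0.30). Its lowest value, 7.9, rests on 2 reads of the shallowest library.

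At 24h miR-125b-1-3p, the passenger strand of a miR-125b gene, was at 34.1, 37.2, 37.8 and 47.2 at LOEL and 46, 61.4, 74.2 and 85.6 at LD50, an estimate of 0.73 (SE 0.23). miR-1a-3p, which in muscle represses transcripts of growth and conduction genes, was at 2207, 2801, 2899 and 5265 at LOEL and 1054, 1120, 1157 and 3339 at LD50, an estimate of -1.09 (SE 0.39). In this miRNA 3 of the 4 LD50 mice lay below all LOEL mice and mouse FP64 lay among them.

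At 7d the smallest p were those of miR-455-3p, whose values are given above, at 1.53 (SE 0.53) and of miR-99b-3p. The latter was at 17.7, 20.2, 22.6 and 28 at LOEL and 8.7, 14, 17.3 and 18.8 at LD50, an estimate of -0.59 (SE 0.26). miR-99b-3p and miR-99a-3p have the seed AAGCUCG in common, and their pooled estimates were -0.23 and -0.22.

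Most estimates of the heart muscle miRNAs and of the miR-29 family were below 0 at 0h and 24h and above it at 6h. The exceptions included miR-208b-3p and, at 0h, miR-208a-5p. Lists of other cells and families had the same order. The 5 fibroblast miRNAs had 0, 5 and 1 estimates above 0 at 0h, 6h and 24h, the 20 of the let-7 list 4, 15 and 4, the 11 of the miR-15 and miR-16 family 1, 9 and 1, and the 12 of the miR-17 and paralogue clusters 1, 10 and 4, so the order is not particular to muscle and miR-29. The reverse order was seen in the 7 of the miR-181 list, with 6, 1 and 7 above 0, in the 18 of the 12qF1 list, with 14, 3 and 13, and in miR-486a-5p of red blood cells, at 0.46, -0.67 and 0.41. It was not seen in miR-451a, also of red blood cells, at -0.25, 0.36 and 0.13. Over all 312 miRNAs the medians at these times were -0.07, 0.02 and -0.02. The muscle and miR-29 miRNAs are shown by sequence because the first 3 are made from myosin genes and the last 3 differ outside the seed only.
miR-208a-3p: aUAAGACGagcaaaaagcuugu
miR-208b-3p: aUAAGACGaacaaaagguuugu
miR-499-5p: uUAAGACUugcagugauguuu
miR-29a-3p: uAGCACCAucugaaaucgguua
miR-29b-3p: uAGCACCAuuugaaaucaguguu
miR-29c-3p: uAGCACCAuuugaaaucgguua
miR-208a-3p comes from an intron of Myh6, the adult myosin of the mouse heart, miR-208b-3p from an intron of Myh7, its fetal form, and miR-499-5p from an intron of Myh7b. The miR-29 family is known to repress transcripts of collagens and other matrix proteins.

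The muscle list held 10 tested members of 15. Pooled over the times, 3 were higher and 7 lower at LD50 with a median of -0.12, beside -0.0019 over all miRNAs tested, 0 passed the test and 0 reached an unadjusted p of 0.05. The median was -0.38 at 0h, 0.32 at 6h, -0.35 at 24h and -0.10 at 7d, beside -0.07, 0.02, -0.02 and 0.00 over all miRNAs tested. miR-499-5p was at 669, 904, 1349 and 1677 at LOEL and 380, 548, 705 and 949 at LD50 at 0h. At 6h it was at 427, 534 and 613 against 531, 594, 961 and 1618, and at 24h at 1013, 1111, 1153 and 1251 against 464, 544, 615 and 1161. Its estimates were -0.82 (SE 0.33), 0.69 (SE 0.36), -0.79 (SE 0.33) and, at 7d, -0.15 (SE 0.33). The groups overlapped at each of these times, and the 3 LOEL mice of 6h had lower values than all other LOEL mice.

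**Figure D4:**
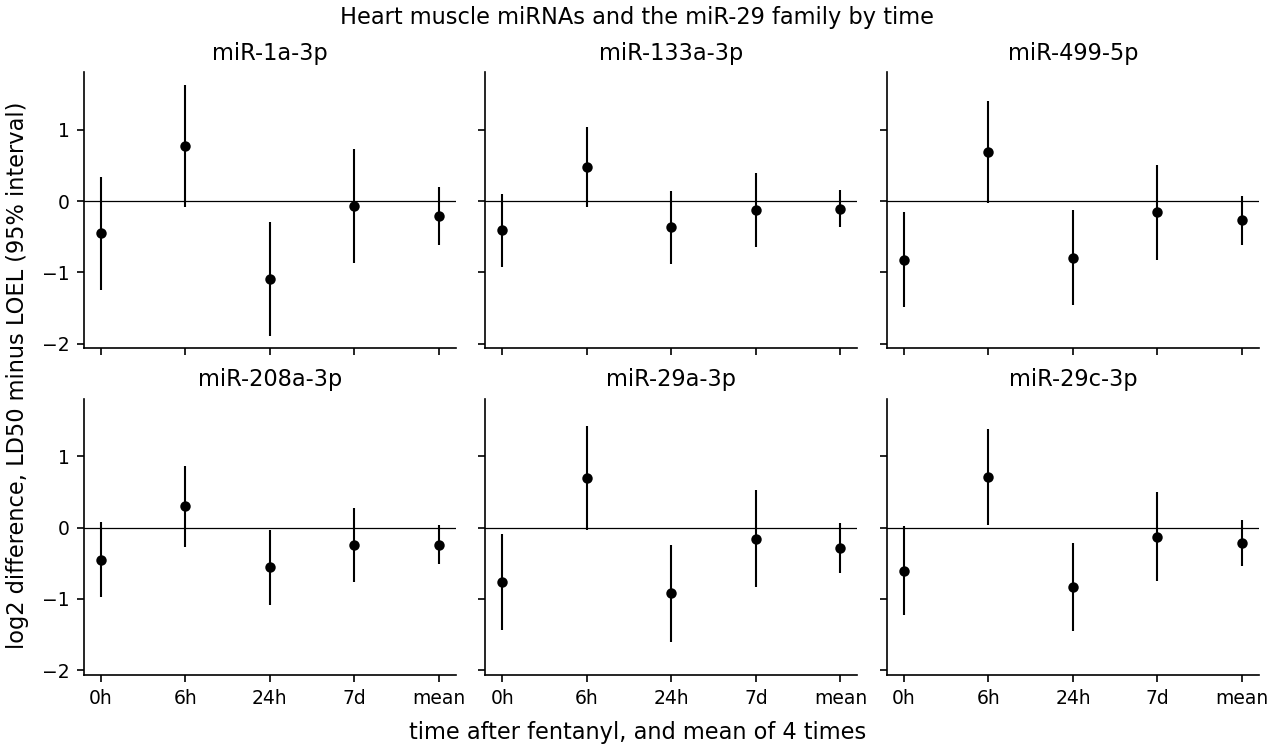
Differences of LD50 minus LOEL on the log2 scale with 95% intervals (vertical axis) at each time and as the mean of the 4 times (horizontal axis) for 4 heart muscle miRNAs and 2 of the miR-29 family. The points are below 0 at 0h and 24h and above 0 at 6h, as for miR-499-5p at -0.82, 0.69 and -0.79, and the intervals of the mean include 0. Of the 10 tested members of the muscle list 3 were above 0 at 0h and 3 at 24h, among them miR-208b-3p, which is not shown.

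Other abundant members had the same order of signs. miR-208a-3p was at -0.45, 0.30, -0.56 and -0.25 at the 4 times and -0.24 pooled (SE 0.13, interval -0.51 to 0.03). miR-133a-3p was at -0.41, 0.48, -0.37 and -0.12 and -0.10 pooled (SE 0.13), and miR-1a-3p at -0.45, 0.77, -1.09 and -0.07 and -0.21 pooled (SE 0.20). miR-208b-3p was at 0.65, -0.05, 0.48 and 0.08 and 0.29 pooled (SE 0.24, interval -0.20 to 0.78). The pooled estimates of miR-208a-3p and miR-208b-3p thus had opposite signs, with intervals that include 0 and no test between them. miR-208a-5p, the other strand of miR-208a, went against miR-208a-3p at 0h. It was higher at LD50 there at an unadjusted p under 0.05 by limma, without overlap of the LD50 and LOEL mice. It did not pass the adjusted threshold.

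The miR-29 list had 5 tested members of 7, with a pooled median of -0.22, 2 higher and 3 lower. miR-29a-3p was at 2852, 3166, 5614 and 5831 at LOEL and 1640, 2227, 2633 and 3687 at LD50 at 0h, at 1249, 1660 and 3701 against 1902, 2951, 4146 and 4478 at 6h, and at 4391, 4661, 5431 and 5748 against 1893, 1908, 2475 and 5570 at 24h. Its estimates were -0.76 (SE 0.34), 0.70 (SE 0.36), -0.92 (SE 0.34) and, at 7d, -0.16 (SE 0.34). As with miR-1a-3p, 3 of the 4 LD50 mice of 24h were below all LOEL mice.

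Whether the difference between the doses changed with time was tested with 1 F statistic per miRNA. It called 0 (0%), with 19 at an unadjusted p under 0.05 (6.09%) and a smallest adjusted p of 0.479 by limma, and edgeR and DESeq2 called 0 each, with 22 and 26. The 5 smallest p were those of miR-125b-1-3p, miR-199b-5p, miR-127-3p, miR-29c-3p and miR-106b-5p. miR-127-3p, of the imprinted cluster on chromosome 12 and antisense to Rtl1, was at 0.50, -0.79, 0.71 and 0.02 at the 4 times, the opposite order to miR-29c-3p at -0.60, 0.71, -0.83 and -0.13 and miR-106b-5p, of the cell cycle cluster in Mcm7, at -0.75, 0.82, -0.62 and 0.25. With library weights, which give less weight to libraries far from their group, the F test called 30 miRNAs, the 0h comparison 10 and the 24h comparison 3, among them miR-499-5p and miR-208a-3p at 0h and miR-1a-3p, miR-29a-3p and miR-29c-3p at 24h, while the pooled comparison called 0. The cause of this change with the weights was not tested.

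The share of a library taken by the muscle list moved with these differences. At 0h it was 8.18 to 12.8% (median 12.4%) of a library's summed values at LOEL and 7.46 to 12.5% (median 7.62%) at LD50. At 6h it was 6.51 to 8.12% (median 7.21%) against 8.05 to 12.6% (median 10.7%), and at 24h 11.7 to 14.8% (median 12.8%) against 7.3 to 14.3% (median 10.3%). At 7d it was 8.26 to 13% and 7.12 to 13.2%. The LOEL hearts of 6h were thus the lowest of the LOEL hearts, and over all times the share was 6.51 to 14.8% (median 12.2%) at LOEL, 7.12 to 14.3% (median 9.99%) at LD50 and 6.63 to 15.1% (median 10.8%) in sham hearts. The share of the red blood cell list ran the other way at 0h, where its median was 10.8% at LOEL (9.36 to 14.7%) and 16.5% at LD50 (10.3 to 19.6%), and at 6h, where it was 18.6% (12.1 to 20.5%) and 10.8% (6.61 to 21.1%). At 24h it was 11.4% (6.02 to 13%) and 11.8% (11.1 to 19.8%), and the groups overlapped at each of these times. Most of this share is miR-486a-5p, with a mean value of 115465 against 5990 for miR-451a. The red blood cell list did not move as a set, since 3 of its tested members were higher and 3 lower at both 0h and 6h. miR-451a was at -0.25 and 0.36 at these times, the opposite signs to miR-486a-5p. The part of the muscle and red blood cell shares of a library in the differences by time was not tested.

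The lists of other cells and processes gave no call. The medians of all lists lay between -0.38 and 0.17. The red blood cell list (6 of 7 members tested, with miR-486a-5p and miR-451a) had 5 higher and 1 lower and a median of 0.12, and its share of a library was 6.02 to 20.5% at LOEL and 6.61 to 21.1% at LD50. miR-451a was at 0.16 (SE 0.13) and miR-486a-5p at 0.03 (SE 0.15). The leukocyte list (5 of 7, with miR-150-5p of lymphocytes at 0.24, SE 0.21, and miR-142a-5p at -0.03, SE 0.14) had a median of -0.03, with shares of 0.138 to 0.397% and 0.22 to 0.43%.

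The lists of injury and low oxygen had small medians as well. The inflammation feedback and injury list (6 of 10) had 5 higher, 1 lower and a median of 0.10. miR-21a-5p, a miRNA raised in many injured tissues, was at 0.00 (SE 0.10, interval -0.19 to 0.19), and miR-146a-5p, which NF-kappa-B induces and which restrains it, at -0.10 (SE 0.16, interval -0.42 to 0.21). miR-146b-5p, which has the seed of miR-146a-5p, had the highest estimate of the list, at 0.31. It was also higher at LD50 than at LD10 at an unadjusted p under 0.05 by limma, without passing the adjusted threshold. The hypoxia list (2 of 2) had a median of 0.17. miR-210-3p, the target of hypoxia-inducible factor, was at 0.03 (SE 0.09, interval -0.15 to 0.22) and its other strand, miR-210-5p, at 0.30 (SE 0.24, interval -0.18 to 0.79). For miR-210-3p and miR-21a-5p a difference of 0.22 or more either way was therefore outside the interval of the mean of the 4 times. At single times the intervals were wider, such as -0.13 to 0.59 at 24h for miR-210-3p and -0.44 to 0.31 at 0h for miR-21a-5p. miR-210-5p was at 0.92 at 7d (SE 0.47, interval -0.03 to 1.87) and at 0.23, -0.13 and 0.19 at 0h, 6h and 24h.

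Vessel and connective tissue lists likewise had small medians. The endothelial list (2 of 4) was at 0.06, with miR-126a-3p at -0.06 (SE 0.13). The smooth muscle list (4 of 4) was at 0.03, with miR-143-3p at -0.07 (SE 0.14) and miR-145a-5p at 0.26 (SE 0.17). The fibroblast list (5 of 6) had all 5 estimates below 0, from -0.10 to -0.01, and a median of -0.08, with miR-199a-3p at -0.04 (SE 0.07) and miR-199a-5p at -0.08 (SE 0.10). Shares of a library overlapped in each, for example 2.61 to 4.34% at LOEL and 2.71 to 4.81% at LD50 for the endothelial list.

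**Figure D5:**
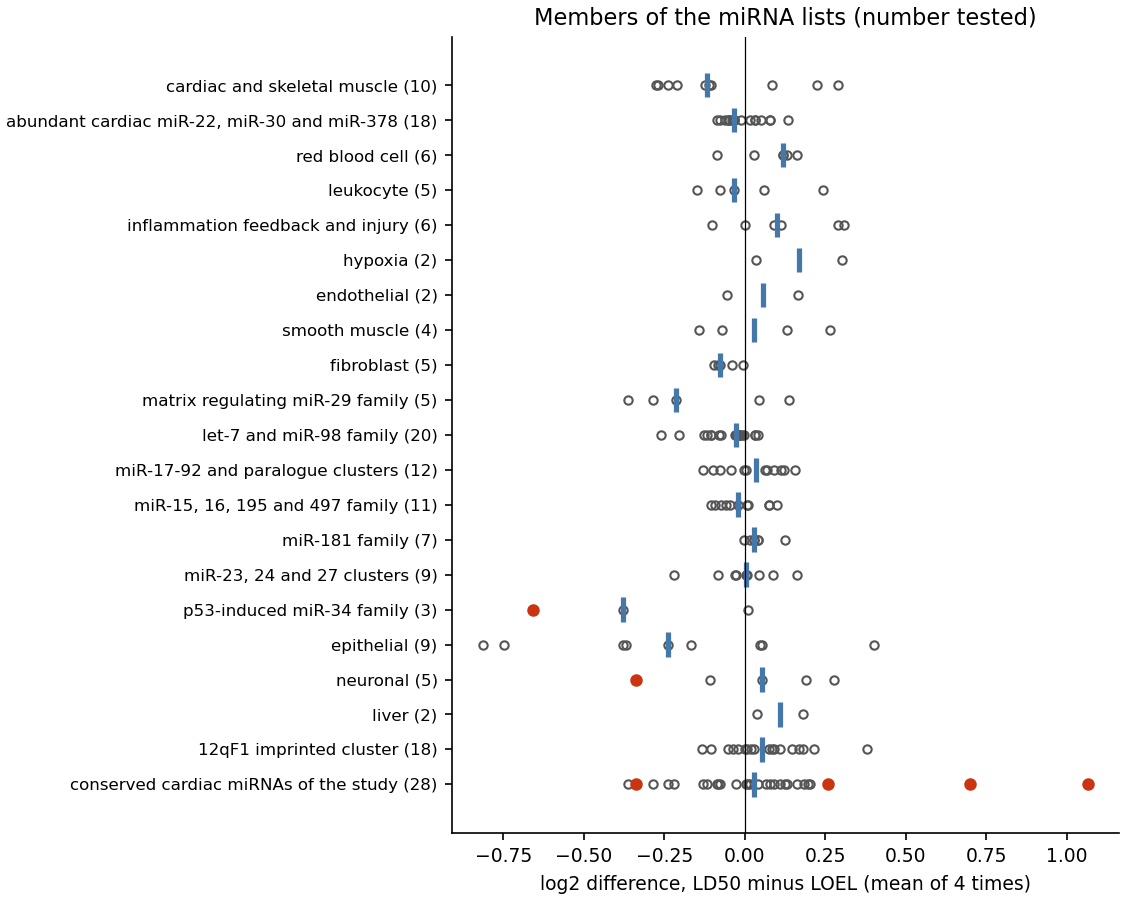
Differences of LD50 minus LOEL on the log2 scale (horizontal axis, mean of the 4 times) for the tested members of the 21 lists (vertical axis, number tested in brackets). Circles are miRNAs, red ones are at an unadjusted p under 0.05, and blue bars are list medians, which lie between -0.38 and 0.17.

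The families of abundant miRNAs had narrow intervals. The list of miR-22, miR-30 and miR-378 (18 of 18) had 7 higher, 11 lower and a median of -0.03, with miR-22-3p at -0.03 (SE 0.10) and miR-30a-5p at -0.05 (SE 0.07). The let-7 and miR-98 list (20 of 23) had 3 higher, 17 lower and a median of -0.03, and none of its members was beyond 0.26 in size, with let-7f-5p at -0.11 (SE 0.08) and let-7c-5p at 0.03 (SE 0.08). The list of the miR-17 and paralogue clusters (12 of 21) was at 0.03, with miR-92a-3p at 0.11 (SE 0.11) and miR-25-3p at 0.06 (SE 0.09). The miR-15 and miR-16 family list (11 of 12) was at -0.02, with miR-16-5p at 0.07 (SE 0.11) and miR-322-5p at -0.04 (SE 0.13). The miR-181 list (7 of 8) was at 0.03, with miR-181a-5p at 0.02 (SE 0.07) and miR-181c-5p at 0.03 (SE 0.09), and the list of the miR-23, 24 and 27 clusters (9 of 11) was at 0.00, with miR-27b-3p at 0.00 (SE 0.07) and miR-27a-3p at -0.08 (SE 0.09). The imprinted 12qF1 list (18 of 45) had 13 higher, 5 lower and a median of 0.05, with miR-411-5p at 0.02 (SE 0.08).

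The lists of cells foreign to heart muscle took small shares of a library, and the epithelial list had a wide spread. The epithelial list (9 of 13) had 3 higher, 6 lower and a median of -0.24, with miR-182-5p at 0.05 (SE 0.42) and miR-203-3p at -0.17 (SE 0.15). Its share of a library was 0.0113 to 0.088% at LOEL and 0.00943 to 0.135% at LD50, a wide range within each dose. The LOEL hearts of 6h, whose muscle share was low, had 0.054 to 0.0737%. LOEL hearts of 24h had 0.0127 to 0.0343% and those of 7d 0.0115 to 0.0182%. At 0h the LOEL range was 0.0113 to 0.088%, and LD50 hearts of 6h had 0.0213 to 0.105%. The part of this share in the differences at 6h was not tested. The neuronal list (5 of 8) had a median of 0.05, with 1 member, miR-153-3p, at an unadjusted p under 0.05 and miR-128-3p at -0.11 (SE 0.10), and the liver list (2 of 5) a median of 0.11. The neuronal share was 0.0423 to 0.0642% at LOEL and 0.0353 to 0.0692% at LD50, and the liver share 0.181 to 0.369% and 0.193 to 0.344%. The miR-34 list (3 of 6) had a median of -0.38, which rests on miR-34b-5p and miR-34c-5p. The 30 conserved cardiac miRNAs that the study selected on these samples, which are not independent evidence, had 28 members tested, 17 higher, 11 lower and a median of 0.03. At an unadjusted p under 0.05 there were 4 (miR-149-5p, miR-215-5p and miR-455-3p higher and miR-153-3p lower) of the 28, beside 10 of the 312 over all miRNAs (3.21%), and 0 passed the adjusted threshold.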

How the data were processed

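Per the labels and the study's methods, total RNA of whole tissue was made into small RNA libraries (TruSeq Small RNA) and sequenced as 50-base single-end reads. The submitters' processing notes name FastQC, Bowtie 1.0.0, edgeR and mm9. The deposited heart table (1960 miRNAs) holds a normalized signal, which the authors made by TMM scaling of reads. Of the low values (up to 200 reads) 100% were whole multiples of 1 read within 0.1 read, so reads were recovered. Totals were 215163 to 5355085 per heart library, and 1 read stands for 0.20 to 3.96, which limits low values. The lung table was used only for the profile of mouse FP38, and cortex was not used here.

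The design allowed for this signal with limma (3.58.1, R 4.3.3, moderated with a mean trend) on log2(value + 1), so fold changes of low miRNAs are understated. Means of 12 dose and time groups were fitted to 47 libraries, with Benjamini-Hochberg adjustment over 312 miRNAs whose value reached 10 or more in 4 or more libraries (99.9% or more of each library's signal) and a threshold of 0.05. Pooled differences weigh the 4 times equally. edgeR (4.0.16), DESeq2 (1.42.0) and the other alternatives are given at the end. The fit was tested on simulated data. In each LOEL and LD50 group the closest libraries differed by more than sampling noise (chi-square per degree of freedom of 27.6 or more). Replicates were separate mice, and p-values measure the spread between them. Permutation tests used scipy 1.17.1, and figures matplotlib 3.10.9 (Python 3.11.15).

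Named miRNAs are, per direction, the 10 smallest p of the pooled comparison and the smallest p at each time, the 5 smallest p of the trend and of the F test, and the 2 most abundant members of each of 21 lists, since none was called. The lists, members and rule were chosen with earlier results of these data known. Positions come from the GENCODE annotation of NCBIM37 (mm9).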

Additional observations from a re-analysis of the deposited data

Results flagged for a closer look

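In groups of 4 mice, 121 combinations of group and measure (total reads and the 10 miRNAs followed mouse by mouse) were checked for 1 mouse far from the other 3, and 10 had one, where chance gives about 1 in 20. At LD50 mouse FP67 had the highest miR-133a-3p at 0h (118368 against 73389 to 76155), mouse FP64 the highest miR-1a-3p at 24h (3339 against 1054 to 1157), mouse FP60 the highest miR-99a-3p at 7d (42.6 against 31.4 to 32.2) and the low-depth mouse FP61 the lowest miR-208a-3p at 7d (503 against 1158 to 1246). At LOEL the low-depth mouse FP24 had the highest miR-3068-3p at 7d (40.4 against 33.9 to 34.4). At LD10 mouse FP21 at 0h, FP42 at 6h and FP41 at 7d had the lowest miR-133a-3p (70343, 91429 and 50445 against 113084 to 119131, 119502 to 121891 and 114898 to 121457), mouse FP56 at 24h the highest miR-3068-3p (37.5 against 29.6 to 30.4) and FP41 the lowest (25.9 against 34.1 to 34.5). Without FP67 the 0h comparison called 1 miRNA, miR-671-3p, and without FP64 the 24h comparison called 0.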

How the results depend on the processing

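LD50 against LOEL over all times gave 0 calls under all 45 alternatives, which covered FP38, sham groups in the fit (without sham mouse FP92), edgeR, DESeq2, RLE scaling, pseudocounts of 0.25 and 4, no filter, library weights, low-depth libraries, an additive fit, a term for mouse numbers (without LD10 mouse FPB2, whose number has another form), LD50 mice FP29 and FP43 alone, only LOEL and LD50 libraries in the fit (chosen after seeing the data) and each of the 31 libraries left out. Its smallest adjusted p was 0.126, by limma without LOEL mouse FP54 at 24h. The term for mouse numbers and the fit of FP29 and FP43 alone rest on those mice, so neither can separate dose from number range. Counts of 0 became 10 at 0h, 3 at 24h, 14 in LD50 against LD10 and 30 in the difference between times with library weights, 1 at 6h with no filter, and in LD50 against LD10 1 with sham groups in the fit, 1 with DESeq2 and 4 with RLE scaling. The cause was not tested. With 1 LOEL or LD50 library left out (no LD10 library was), counts ran from 0 to 1 at 0h (1 without LD50 mouse FP67) and 0 to 7 in LD50 against LD10 (7 without LD50 mouse FP67 of 0h or FP64 of 24h, 6 without FP29, FP43 or FP59, 4 without LOEL mouse FP45, 2 without LOEL mouse FP24 and 1 without LD50 mouse FP72 or FP63), and were 0 in the other comparisons. Of the 28 named differences under 1236 alternatives, 1224 kept sign and side of the threshold, 1 passed it (miR-1a-3p at 24h with library weights, -1.20, adjusted p = 0.048 by limma) and 11 turned sign. All 11 turned under the settings for mouse numbers, which were run only for the 20 named differences of the pooled comparison. With the mouse number term these were miR-542-5p (-0.04), miR-3068-3p (0.02), miR-29b-3p (0.41), miR-148b-5p (0.19) and miR-362-3p (0.14), and with only FP29 and FP43 they were miR-191-5p (-0.20), miR-542-5p (-0.14), miR-153-3p (0.14), miR-340-5p (0.06), miR-29b-3p (0.76) and miR-148b-5p (0.22). miR-215-5p stayed between 0.75 and 1.37 and miR-455-3p between 0.58 and 1.10. No paired analysis was made, because each dose and time group held separate mice and the labels link no mouse of one group to one of another.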
